A study of Homo sapiens with 8 samples.

Results

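The 10 genes described here belong to the hypoxia-inducible factor (HIF) pathway outside glycolysis. They are a list of symbols (HIF1A, EPAS1, EGLN1, EGLN3, VEGFA, ADM, CA9, BNIP3, NDRG1 and ANKRD37) with no threshold on a measured value, drawn up with earlier results of these data known. All 10 had a row among the 15745 named genes of the deposited counts, and all 10 had at least 10 counts in at least 4 libraries, as did 12910 genes in all. The libraries came from HuH7, a human hepatoma-derived cell line of wildtype genotype. Every culture was first kept in glucose-free DMEM at 1% oxygen for 6 h and then returned to normoxia for 6 h, a model of ischemia and reperfusion called OGD/R (oxygen-glucose deprivation and reperfusion). During those last 6 h the medium held DMSO alone (I/R+DMSO, 4 libraries) or ginsenoside Rk2, a ginseng saponin dissolved in DMSO, at 20 µM (I/R+Rk2, 4 libraries). Cells kept in normal oxygen throughout, or harvested before reoxygenation, were not analysed here, so the values compare Rk2 with its solvent and do not measure how far hypoxia had raised a gene. HuH7 is a single tumor cell line, and in its bulk RNA a shift in every cell cannot be told apart from a larger shift in some of them.

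HIF is a pair of proteins, an oxygen-labile alpha subunit (HIF-1α from HIF1A or HIF-2α from EPAS1) and the stable partner ARNT. When oxygen is present, prolyl hydroxylases of the EGLN family mark the alpha subunit, the VHL ubiquitin ligase binds it, and the proteasome destroys it. When oxygen is short the alpha subunit persists, enters the nucleus and switches on genes for blood vessel growth, pH control, mitophagy and glycolysis, and the induced hydroxylases then speed its removal on reoxygenation. The alpha subunit is controlled mainly as protein, which mRNA counts do not show. In hepatocytes the pathway answers to the oxygen gradient across the liver lobule.

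Library totals ran from 16374082 to 30310479 counts, and the library labels do not say whether the 4 of a group were separate cultures, so p-values measure the spread between these libraries, which may be technical. AFP and ALB, markers of fetal and adult hepatocytes, averaged 5937 and 2288 normalized counts-per-million (CPM) in I/R+DMSO. Scaled by library size alone, the hepatocyte list of 10 genes summed to between 11641 and 12690 CPM in I/R+DMSO. In I/R+Rk2 it summed to between 12664 and 13120 CPM. The 7 counted markers of immune, endothelial, stromal and bile duct cells summed, on the same scale, to between 69.1 and 85.8 CPM in I/R+DMSO. In I/R+Rk2 they summed to between 69.4 and 85.4 CPM, and 4 of the 7 were below the count filter. None of the 3 tested was called. Gene length and log2 fold change were correlated over the 12898 tested genes with a length, which share the same libraries (Spearman's rho = 0.388), and 60.2% of called genes were higher in I/R+Rk2. That share was 48.8% with upper-quartile normalization, 70.6% with library size alone and 45.2% after a correction for gene length, so directions of small changes are given with those settings where they differ.

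Of the 10 genes, HIF1A alone had an adjusted p-value below 0.05 (edgeR quasi-likelihood test, Benjamini-Hochberg adjustment over all tested genes), and it was higher in I/R+Rk2. Among all tested genes 18.2% were called, 11.0% higher and 7.24% lower, so 1 of 10 is no more than the share of all genes. No gene of the 10 passed both that threshold and a 1.5-fold change, as 3.04% of all tested genes did (2.46% higher and 0.581% lower). In 2 of the 10, HIF1A and EGLN1, every library of one condition lay beyond every library of the other, against 28.3% of all tested genes. In log2 fold change (I/R+Rk2 over I/R+DMSO) 4 genes lay above 0 and 6 below, with a median of -0.07 where that of all tested genes was -0.00205. At an unadjusted p-value below 0.05 there were 4 of the 10, and 34.5% of all tested genes.

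**Figure D1:**
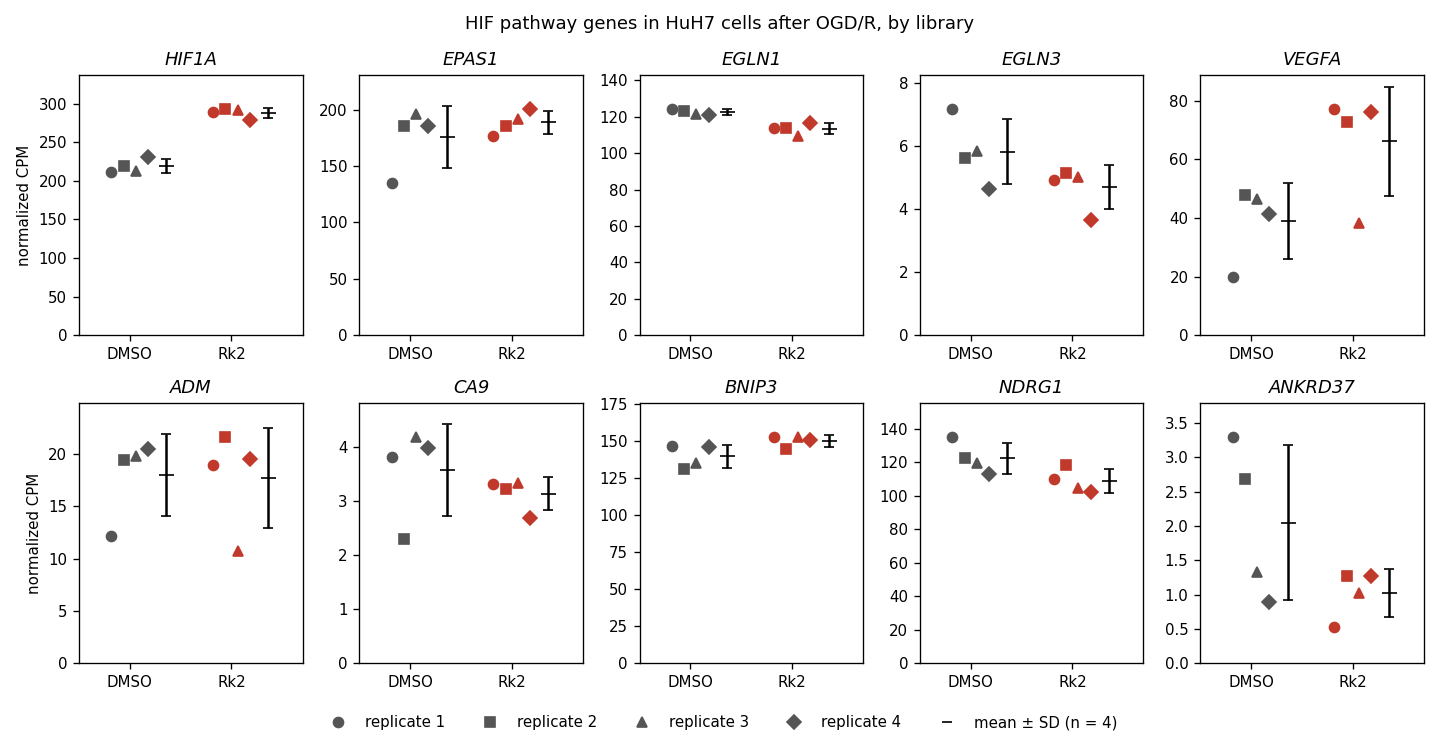
Normalized CPM (vertical axes, each from 0) of the 10 HIF pathway genes in 4 I/R+DMSO (gray) and 4 I/R+Rk2 (red) libraries, with a symbol per replicate number and the mean ± SD (n = 4) at the right of each group. The groups were apart in HIF1A and EGLN1, and replicate 1 of I/R+DMSO and replicate 3 of I/R+Rk2 were lowest in both VEGFA and ADM.

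HIF factors bind DNA at a short core, ACGTG or GCGTG, the center of the hypoxia response element. RefSeq promoter sequences of GRCh38.p14 were searched for both cores on both strands over the 250 bases before each start site. Entries were matched for 8 of the 10 genes, in 9 windows because HIF1A has more than one start. VEGFA and NDRG1 had no entry and were not searched. At least 1 core was found in 7 of the 9 windows, or 77.8%, against 54.5% of 14692 windows of tested genes and 43.2% of all 35116 windows. EGLN3 and the second HIF1A start had none in this window. EPAS1 held 1 match, and its stretch is not among those below. The stretches below are those of HIF1A and EGLN1, whose groups did not overlap, and of 4 target genes that did not pass the test. Capitals mark the cores, which read CACGT or CACGC where the match is on the opposite strand, and CACGTG holds a match on each strand.
HIF1A: tggctgagagcgGCGTGggctggggtggg
EGLN1: gggccgtggtgtACGTGcagagcgc
ADM: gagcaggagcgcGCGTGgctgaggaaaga
CA9: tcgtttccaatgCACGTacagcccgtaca
BNIP3: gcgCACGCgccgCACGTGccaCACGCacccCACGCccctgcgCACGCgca
ANKRD37: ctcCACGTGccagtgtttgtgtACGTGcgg
They lie at chr14:61695297-61695325 (plus strand, HIF1A), chr1:231422288-231422312 (minus, EGLN1), chr11:10304960-10304988 (plus, ADM), chr9:35673898-35673926 (plus, CA9), chr10:131982020-131982069 (minus, BNIP3) and chr4:185396676-185396705 (plus, ANKRD37). The start sites are those of RefSeq, and the stretches of EGLN1, ADM, CA9 and ANKRD37 lie wholly within exons of GENCODE v29, so for these genes the letters before the RefSeq start are also transcribed in annotated transcripts. BNIP3 held 6 matches and ANKRD37 held 3, and each of the other 4 stretches held 1. A match is a run of letters and does not show that a HIF protein was bound in these cells.

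The alpha subunit genes came first. HIF1A (ENSG00000100644.16, chr14:61695513-61748259, plus strand, GENCODE v29 on GRCh38) encodes HIF-1α. Its normalized CPM was 211, 219, 213 and 231 in I/R+DMSO replicates 1 to 4 and 290, 293, 292 and 279 in I/R+Rk2 replicates 1 to 4. Every I/R+Rk2 library was above every I/R+DMSO library, and the spread within each group was narrow. Mean CPM was 219 ± 9.10 without and 288 ± 6.59 with Rk2 (± SD, n = 4 libraries per group). HIF1A thus rose 1.32-fold, with a 95% interval of 1.24 to 1.41 (log2 0.40, standard error 0.0401, edgeR adjusted p = 0.000855). HIF1A ranked 102 by p-value among all tested genes. Its adjusted p-value stayed between 0.00106 and 0.00497 in edgeR with any 1 library left out. After the gene length correction the log2 fold change was 0.31 and the gene was still called. Exons of HIF1A share 117 bases with the opposite-strand HIF1A-AS1 and 148 bases with AL137129.1 on the same strand, neither of which was analysed here.

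EPAS1 (ENSG00000116016.13, chr2:46293667-46386703, plus strand) encodes HIF-2α. It had 135, 185, 196 and 186 CPM in I/R+DMSO replicates 1 to 4 and 177, 186, 192 and 201 CPM in I/R+Rk2 replicates 1 to 4. The groups overlapped, and I/R+DMSO replicate 1 lay well below the other 7 libraries. On the log2 scale the difference was 0.11 with a 95% interval of -0.15 to 0.36 (edgeR adjusted p = 0.543). Without I/R+DMSO replicate 1 it was -0.0014 and after the gene length correction -0.02, so no direction is given. Within a library, the FPKM ratio of HIF1A to EPAS1 was 2.05, 1.67, 1.28 and 1.499 in I/R+DMSO replicates 1 to 4 and 2.21, 1.94, 1.89 and 1.67 in I/R+Rk2 replicates 1 to 4. The log2 ratio was 0.258 higher in I/R+Rk2, with overlapping groups (two-sided exact permutation p = 0.20, adjusted p = 0.400 over 2 ratios, where the smallest p for 4 against 4 is 0.0286).

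The oxygen sensors followed. EGLN1 (PHD2; ENSG00000135766.8, chr1:231363751-231425044, minus strand) is the main hydroxylase that marks HIF-1α for removal. It had 124, 123, 122 and 121 CPM in I/R+DMSO replicates 1 to 4 and 114, 114, 109 and 117 CPM in I/R+Rk2 replicates 1 to 4. All I/R+Rk2 libraries were below all I/R+DMSO libraries, by a small margin. Mean CPM was 123 ± 1.53 without and 114 ± 3.12 with Rk2 (± SD, n = 4 libraries per group), and the log2 difference was -0.11 (95% interval -0.19 to -0.03, edgeR adjusted p = 0.0619). It passed the threshold in DESeq2 (adjusted p = 0.0251), with upper-quartile normalization in edgeR (log2 fold change -0.14, adjusted p = 0.0317) and after the gene length correction (-0.33, edgeR adjusted p = 0.00926). These were 3 of 18 alternatives, and in the other 15 the adjusted p-value lay between 0.054 and 0.174, every fit with 1 library left out included. With library size alone the log2 difference was -0.08 (edgeR adjusted p = 0.159). The length derived for EGLN1 from its counts and FPKM was between 7585 and 8537 bases, the longest of the 10 genes.

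EGLN3 (PHD3; ENSG00000129521.13, chr14:33924231-34462774, minus strand) is a hydroxylase whose gene is itself a strong HIF target. Its CPM was 7.17, 5.61, 5.84 and 4.64 in I/R+DMSO replicates 1 to 4 and 4.92, 5.14, 5.02 and 3.64 in I/R+Rk2 replicates 1 to 4. Most I/R+Rk2 libraries were below most I/R+DMSO libraries, but the groups overlapped. Its log2 fold change was -0.31 with a 95% interval of -0.68 to 0.06 (edgeR adjusted p = 0.214), and it was -0.20 without I/R+DMSO replicate 1. The log2 FPKM ratio of EGLN3 to EGLN1 was -2.95 in I/R+DMSO and -3.13 in I/R+Rk2, a difference of -0.178 (two-sided exact permutation p = 0.400, also 0.400 after adjustment over 2 ratios).

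The genes of both secreted factors varied more between replicates than HIF1A, EPAS1, EGLN1, BNIP3 or NDRG1. VEGFA (ENSG00000112715.21, chr6:43770184-43786487, plus strand) encodes the growth factor that drives blood vessel sprouting. It had 20.0, 48.0, 46.5 and 41.4 CPM in I/R+DMSO replicates 1 to 4 and 77.3, 72.8, 38.4 and 76.3 CPM in I/R+Rk2 replicates 1 to 4. In each group 1 library stood far below the others, I/R+DMSO replicate 1 and I/R+Rk2 replicate 3, and the latter lay inside the range of I/R+DMSO. Mean CPM was 38.9 ± 13.0 without and 66.2 ± 18.6 with Rk2 (± SD, n = 4 libraries per group). At 0.77 its log2 fold change was the highest of the 10 genes, yet its 95% interval ran from 0.04 to 1.495 and its adjusted p-value was 0.128 in edgeR. In DESeq2, where 23.1% of all tested genes passed, the adjusted p-value was 0.0492 at a log2 fold change of 0.76. Fits that lacked 1 library gave 0.55 (without I/R+DMSO replicate 1) to 0.95 (without I/R+Rk2 replicate 3), with edgeR adjusted p-values between 0.0688 and 0.247. Exons of VEGFA share 188 bases with the opposite-strand AL136131.3.

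ADM (ENSG00000148926.9, chr11:10304680-10307397, plus strand) encodes adrenomedullin, a vasodilator peptide. Its CPM was 12.2, 19.4, 19.8 and 20.5 in I/R+DMSO replicates 1 to 4 and 18.9, 21.6, 10.8 and 19.5 in I/R+Rk2 replicates 1 to 4. The groups overlapped throughout, and the lowest library of each group was the one in which VEGFA was lowest. The log2 fold change was -0.02 with a 95% interval of -0.58 to 0.54 (edgeR adjusted p = 0.966), an interval from 0.671-fold to 1.45-fold. With each library left out it lay between -0.17 and 0.15, so no direction is given.

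The ratio of VEGFA to ADM within a library was looked at after both genes had been seen and is given as a description. In CPM it was 1.64, 2.47, 2.34 and 2.02 in I/R+DMSO replicates 1 to 4 and 4.08, 3.37, 3.57 and 3.92 in I/R+Rk2 replicates 1 to 4. The ratio was higher in every I/R+Rk2 library than in every I/R+DMSO library, the 2 libraries with low VEGFA and low ADM included. On FPKM the groups also did not overlap, with a ratio of at most 1.74 in I/R+DMSO (from 1.18) and of at least 2.44 in I/R+Rk2 (up to 3.60). Among single tested genes 28.3% had groups that did not overlap, and the share among other pairs of genes was not computed. VEGFA and ADM each overlapped between groups when taken alone.

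**Figure D2:**
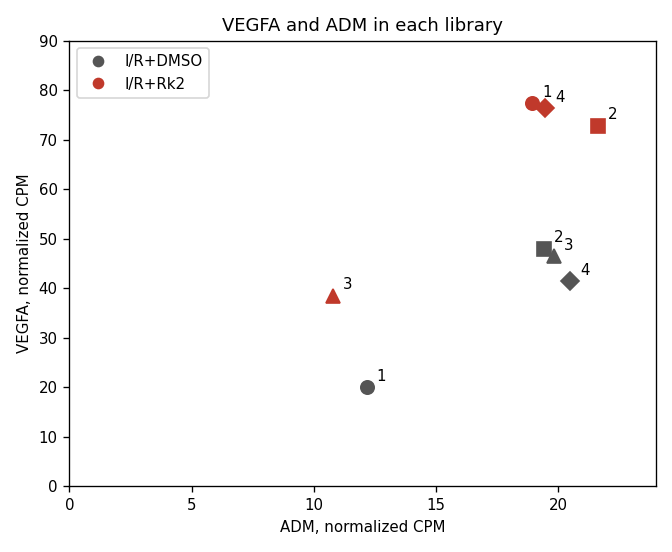
VEGFA (vertical axis) against ADM (horizontal axis), both in normalized CPM, for each I/R+DMSO (gray) and I/R+Rk2 (red) library, numbered by replicate. I/R+DMSO replicate 1 (12.2 and 20.0 CPM) and I/R+Rk2 replicate 3 (10.8 and 38.4 CPM) were low in both genes. VEGFA per ADM, a ratio chosen after both genes had been seen, was higher in each I/R+Rk2 library.

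Among the targets with roles inside the cell, BNIP3 (ENSG00000176171.11, chr10:131966455-131982013, minus strand), a mitochondrial receptor for mitophagy, had 147, 131, 136 and 146 CPM in I/R+DMSO replicates 1 to 4. In I/R+Rk2 replicates 1 to 4 it had 153, 144, 153 and 151 CPM. The lowest I/R+Rk2 library lay within I/R+DMSO and the other 3 above it. Its log2 fold change of 0.10 had a 95% interval of -0.01 to 0.21 (edgeR adjusted p = 0.170), the upper end of which is 1.16-fold, and it was 0.05 after the gene length correction. The annotation lists 39 BNIP3 pseudogenes, none of which had a row among the named genes, so the split of its reads among copies is uncertain. It also lists the pseudogenes HIF1AP1, EGLN1P1 and EGLN3P1, which bring the same limit to HIF1A, EGLN1 and EGLN3.

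NDRG1 (ENSG00000104419.14, chr8:133237171-133302022, minus strand), a stress-induced protein that slows growth, had 135, 122, 120 and 113 CPM in I/R+DMSO replicates 1 to 4 and 110, 119, 105 and 102 CPM in I/R+Rk2 replicates 1 to 4. The I/R+Rk2 libraries were mostly lower, with 1 of them above the lowest I/R+DMSO library. The log2 fold change was -0.17 (95% interval -0.33 to -0.02, edgeR adjusted p = 0.115). FPKM ordered its libraries differently: I/R+DMSO replicate 1, the highest in CPM, had 36.2 FPKM, where the other I/R+DMSO libraries had 53.5, 47.9 and 51.0. The transcript length implied by counts and FPKM ranged from 2143 to 3659 bases between libraries for NDRG1, against 3313 to 3395 for BNIP3.

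The low genes were close to the depth limit. CA9 (ENSG00000107159.12, chr9:35673856-35681159, plus strand), a cell surface carbonic anhydrase widely used as a mark of hypoxia, had 72, 49, 76 and 85 counts in I/R+DMSO replicates 1 to 4 and 101, 61, 55 and 53 in I/R+Rk2 replicates 1 to 4. In CPM these were 3.82, 2.31, 4.19 and 3.99 against 3.31, 3.23, 3.33 and 2.68. The I/R+Rk2 libraries all lay within the range of I/R+DMSO. The log2 fold change was -0.19 with a 95% interval of -0.63 to 0.26 (edgeR adjusted p = 0.538). It was -0.35 without I/R+DMSO replicate 2, -0.10 without I/R+DMSO replicate 3, -0.12 without I/R+Rk2 replicate 4, -0.10 after the gene length correction and 0.03 to 0.05 in limma on FPKM, so no direction is given. CA9 exons share 643 bases with ARHGEF39 on the opposite strand, which had 344 to 976 counts per library and a log2 fold change of -0.21 (edgeR adjusted p = 0.482). Whether counting used strand is not given in the sources used here, so reads of these overlapping genes cannot be told apart.

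ANKRD37 (ENSG00000186352.8, chr4:185396021-185400628, plus strand), an ankyrin repeat protein induced in many hypoxic cells, had 62, 57, 24 and 19 counts in I/R+DMSO replicates 1 to 4 and 16, 24, 17 and 25 in I/R+Rk2 replicates 1 to 4. In CPM these were 3.29, 2.69, 1.32 and 0.891 against 0.524, 1.27, 1.03 and 1.26. I/R+DMSO itself was divided, with replicates 1 and 2 high and replicates 3 and 4 near the I/R+Rk2 libraries. The log2 fold change of -1.02 was the lowest of the 10 genes, with a 95% interval of -2.08 to 0.03 (edgeR adjusted p = 0.157), and it was not past the threshold in any of the settings that tested it. In limma on log2(FPKM + 1) it was -0.45. ANKRD37 exons share 909 bases with UFSP2 on the opposite strand, which had 108 to 238 counts per library and a log2 fold change of 0.19 (edgeR adjusted p = 0.398).

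**Figure D3:**
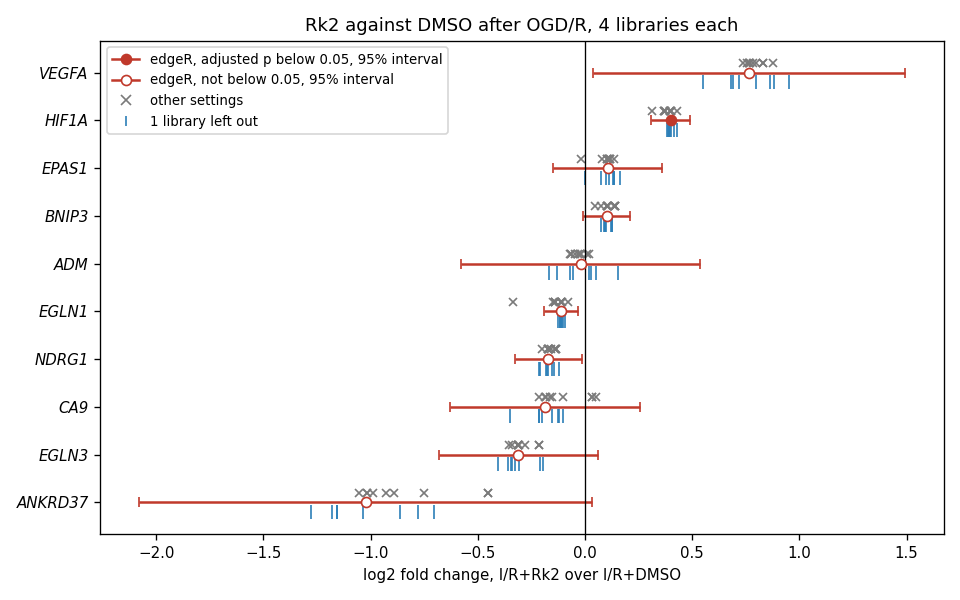
Log2 fold change (horizontal axis, I/R+Rk2 over I/R+DMSO) of the 10 genes, with the 95% interval from edgeR, filled where the adjusted p-value was below 0.05; crosses are other settings and blue ticks are fits with 1 library left out. HIF1A is the filled point at 0.40, the widest intervals are those of ANKRD37 and VEGFA, and the isolated cross of EGLN1 at -0.33 is the gene length correction.

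Levels between genes were compared per length, in the authors' FPKM. Averaged over the 8 libraries, HIF1A was highest at 63.0 FPKM, followed by NDRG1 at 45.0, BNIP3 at 43.2, EPAS1 at 35.8, VEGFA at 20.3, EGLN1 at 14.3, ADM at 9.01, CA9 at 2.19, EGLN3 at 1.78 and ANKRD37 at 1.20 FPKM. Only 2 neighbors in that order had ranges over the libraries that did not overlap, EGLN1 (13.1 to 15.8 FPKM) with ADM (6.73 to 10.3) and ADM with CA9 (1.45 to 2.58). The order also differed between groups. In I/R+DMSO, mean FPKM was 15.1 for EGLN1 and 14.4 for VEGFA, and 47.1 for NDRG1 and 41.1 for BNIP3. In I/R+Rk2 it was 13.5 for EGLN1 and 26.1 for VEGFA, and 42.8 for NDRG1 and 45.3 for BNIP3. CA9, EGLN3 and ANKRD37 formed a low group whose highest library had 2.59 FPKM.

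The rest of the HIF machinery was read from a list of 16 regulators, of which 14 were tested. SIAH2, a ubiquitin ligase that targets EGLN proteins, was the 1 regulator called, rising from a mean CPM of 34.8 ± 1.24 to one of 49.0 ± 0.875 (± SD, n = 4 libraries per group; log2 0.49, edgeR adjusted p = 0.00064). The other 13 were not called, and the median of the list was -0.00338. The 7.14% of regulators called lay below the 18.2% of all tested genes (11.0% higher and 7.24% lower). VHL, which binds hydroxylated alpha subunits, had a log2 fold change of 0.04 (edgeR adjusted p = 0.843), and ARNT, the shared partner, of 0.01 (edgeR adjusted p = 0.969). EGLN2, the third hydroxylase, was at -0.09 (edgeR adjusted p = 0.808) and HIF1AN, the asparagine hydroxylase that silences the alpha subunit, at -0.04 (edgeR adjusted p = 0.629). HIF3A, with 0 to 3 counts, was not tested, and ARNT2 was not analysed here.

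A further list of 52 HIF targets outside glycolysis had 46 tested genes, of which 16 rose and 1 fell, a share of 37.0% called where all tested genes had 18.2% (11.0% higher and 7.24% lower), and its median log2 fold change was 0.15. The list was drawn up with earlier results of these data known, so its share is a description. The 16 were fewer in limma on FPKM, at 8 to 10, and were 10 without I/R+Rk2 replicate 2 and 9 without I/R+Rk2 replicate 4. Higher calls among all tested genes fell too, from 1417 to between 706 and 812 in limma on FPKM. They were 950 without I/R+Rk2 replicate 2 and 863 without I/R+Rk2 replicate 4. STC2, a secreted stanniocalcin, rose from a mean CPM of 52.7 ± 1.95 to one of 150 ± 2.03 (± SD, n = 4 libraries per group; log2 1.51, edgeR adjusted p = 1.9e-06). DDIT4 (REDD1), a brake on mTORC1, had a log2 fold change of 1.13 (edgeR adjusted p = 3.4e-05). The lipoprotein receptor gene VLDLR was at 1.02 (edgeR adjusted p = 0.000145) and the transcriptional repressor BHLHE40 at 0.48 (edgeR adjusted p = 0.000686). LOXL2, a collagen crosslinking enzyme, was lower, with a log2 fold change of -0.41 (edgeR adjusted p = 0.00761).

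Of 21 glycolytic HIF targets 18 were tested, and 2 fell while none rose, with a median of -0.11. The 11.1% called were fewer than the 18.2% of all tested genes, and the 11.1% that fell compare with 7.24% of all tested genes. PGAM1 had a log2 fold change of -0.21 (edgeR adjusted p = 0.0061) and GAPDH of -0.20 (edgeR adjusted p = 0.0228), both glycolytic enzymes. The count of 2 lower genes was 7 in DESeq2, which also called 1 higher, and 1 without I/R+Rk2 replicate 2 or 4. Among all tested genes 935 were called lower, against 1298 in DESeq2, 517 without I/R+Rk2 replicate 2 and 430 without I/R+Rk2 replicate 4. SLC2A3, HK1 and PFKP were below the count filter.

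ATF4, the transcription factor of the integrated stress response, is known to share targets with HIF, VEGFA among them. Of 18 genes on an ATF4 list that holds none of the HIF genes above, 17 were tested, 13 rose and 1, ATF5, fell (log2 fold change -0.44, edgeR adjusted p = 0.00722), with a median of 0.63 and 82.4% called against 18.2% of all tested genes. This list too was drawn up with earlier results known. ASNS, asparagine synthetase, had a log2 fold change of 1.00 (edgeR adjusted p = 5.4e-06), PSAT1 of serine synthesis 0.63 (edgeR adjusted p = 3.4e-05), the stress protein SESN2 1.32 (edgeR adjusted p = 5.2e-05) and the cystine transporter SLC7A11 1.28 (edgeR adjusted p = 6.6e-05). Their part in the values of VEGFA, STC2 or DDIT4 was not tested.

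**Figure D4:**
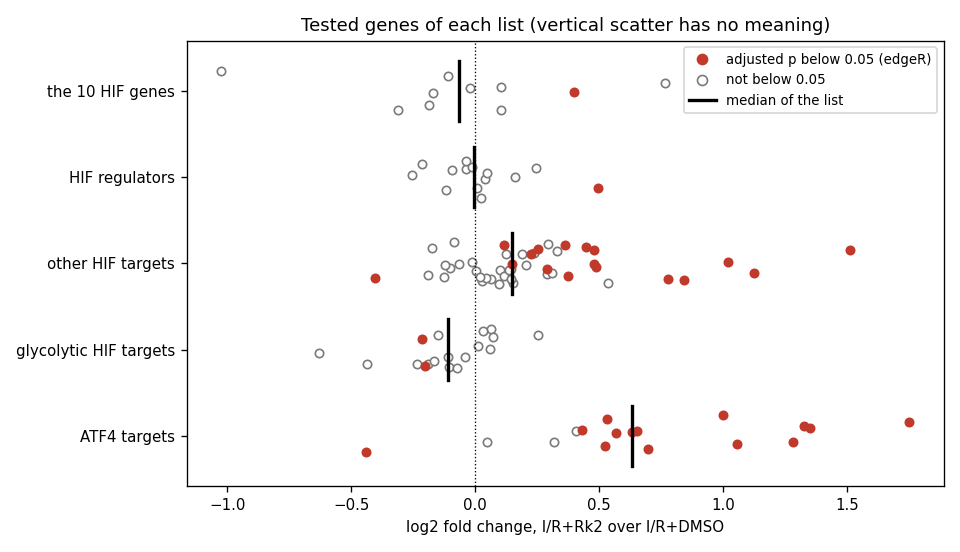
Log2 fold change (horizontal axis, I/R+Rk2 over I/R+DMSO) of every tested gene in 5 lists (rows; vertical scatter has no meaning), with genes of adjusted p-value below 0.05 in red and the list median as a black bar. Medians were -0.07 for the 10 HIF genes, -0.00338 for HIF regulators, 0.15 for other HIF targets, -0.11 for glycolytic HIF targets and 0.63 for ATF4 targets.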

How the data were processed

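RNA from 8 HuH7 libraries was read by the authors on a BGISEQ-500 sequencer. Deposited by the authors were raw counts per gene and FPKM, normalized for length and library size. The submitters' processing notes name hg38, HISAT2 2.2.1, StringTie 1.3.3 and FastQC 0.11.5; the counting tool, its strand setting and the annotation are not given in the sources used here. A column summing the 8 libraries was not used.

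The 10 genes and all gene lists were chosen with earlier results of these data known. Groups came from the sample titles. The 22 symbols turned into dates (0.111% of counts) were left out. The 12910 genes reaching 10 counts in 4 or more libraries (99.8% of counts) were TMM-normalized and tested with edgeR 4.0.16 (robust quasi-likelihood, R 4.3.3), the model holding the condition alone, and p-values were adjusted by Benjamini-Hochberg. A call is an adjusted p-value below 0.05. Intervals of 95% are unadjusted. Permutation tests were exact and two-sided. Alternatives were DESeq2 1.42.0, upper-quartile or no normalization, other count filters, limma 3.58.1 on log2(FPKM + 1) and log2(FPKM + 0.1), a loess correction for gene length (span 0.5), a replicate block and leaving out each library. Named were the 10 genes, VHL, ARNT, EGLN2, HIF1AN and, per further list, up to 4 called genes in each direction by p-value. On simulated data edgeR found 183 of 200 genes changed by 2-fold among 12910, with 6 false calls. Detection of changes below 2-fold, such as that of HIF1A, was not tested. Replicates differed by more than counting error, by a chi-square per degree of freedom of at least 16.1.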

Additional observations from a re-analysis of the deposited data

Results flagged for a closer look

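In 4 of 20 groups screened (10 genes in 2 groups of 4 libraries) the lowest library stood apart from the other 3, its gap to the nearest divided by the range of the group being above the 95% critical value of Dixon; chance gives this in about 1 of 20 groups. VEGFA in I/R+Rk2 replicate 3 had a ratio of 0.883, at 38.4 CPM or 50.9% of the mean of the other 3 libraries. ADM in I/R+DMSO replicate 1 had a ratio of 0.869, at 12.2 CPM or 61.1% of the mean of the other 3. EGLN3 in I/R+Rk2 replicate 4 had a ratio of 0.849 at 3.64 CPM. CA9 in I/R+Rk2 replicate 4 had a ratio of 0.853 at 2.68 CPM, on 53 counts.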

How the results depend on the processing

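HIF1A was called in all 18 alternatives, at log2 fold changes of 0.31 to 0.43. Of the counts of called genes, those of the 10 genes became 2 higher and 1 lower in DESeq2 (1 of them, VEGFA, past 1.5-fold) and 1 lower with upper-quartile normalization and after the length correction; the added genes were VEGFA (higher) and EGLN1 (lower). HIF regulators had 1 lower in DESeq2 and after the length correction, and 1 to 2 higher with each library left out. Other HIF targets had 10 higher in limma on log2(FPKM + 1) or log2(FPKM + 0.1) and 8 without a filter on FPKM, 9 to 15 with each library left out, and 2 lower in DESeq2, with upper-quartile normalization and at 50 counts in every library, or 3 after the length correction. Glycolytic targets had 1 higher in DESeq2, 0 to 1 with each library left out (1 without I/R+DMSO replicate 4), and 7 lower in DESeq2, 5 with upper-quartile normalization, 4 after the length correction and 1 to 3 with each library left out. The number of ATF4 targets called was 11 to 13 higher and 1 lower. Uncalled values changed sign in EPAS1 (-0.017 after the length correction; -0.0014 to 0.16 with each library left out), ADM (0.0097 with library size only, 0.020 after the length correction, -0.17 to 0.15 with each library left out) and CA9 (0.033 in limma on log2(FPKM + 1), with or without a filter, and 0.051 on log2(FPKM + 0.1)). With each library left out, the group difference in the log2 ratio of HIF1A to EPAS1 lay between 0.151 and 0.376. That of EGLN3 to EGLN1 lay between -0.311 and -0.0634, and 3 against 4 cannot reach 0.05. From counts in place of FPKM, the differences over all 8 libraries were 0.281 and -0.198 (two-sided exact permutation p = 0.0857 and 0.343, unadjusted). Apart from the length correction's own construction, the cause of these shifts was not tested.

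Over all genes 2352 were called, 2985 in DESeq2, 970 to 1123 in limma on FPKM, and as few as 1293 without I/R+Rk2 replicate 4. Lower calls numbered 935, and 1298 in DESeq2, 1306 with upper-quartile normalization and 1243 after the length correction. The labels do not say whether same-numbered libraries shared more than a number. Their deviations correlated at -0.0095 to 0.0845, and 1 of 4 I/R+DMSO libraries correlated best with its own number. Weak correlations cannot show that libraries were unpaired. The replicate block gave 1815 calls and left HIF1A at a log2 fold change of 0.40 (edgeR adjusted p = 0.0127). CA9 and ANKRD37, with 49 to 101 and 16 to 62 counts per library, were left out at 50 counts in every library, and depth limits both.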

Other observations

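In 2 of the 10 genes, VEGFA and ADM, I/R+DMSO replicate 1 and I/R+Rk2 replicate 3 were at once the lowest libraries of their groups. The same held in 8.18% of all tested genes, and the pattern was looked for after both genes had been seen. Singly, I/R+DMSO replicate 1 was also lowest in HIF1A and EPAS1, and I/R+Rk2 replicate 3 in EGLN1. Other genes went the other way: I/R+DMSO replicate 1 was the highest of its group in EGLN1, EGLN3, BNIP3, NDRG1 and ANKRD37. I/R+Rk2 replicate 3 was the highest of its group in CA9. In VEGFA these libraries stood at 44.1% and 50.9% of the mean of the other 3 of their group, and in ADM at 61.1% and 53.8%. Being below 70% of that mean in both libraries was found in 118 tested genes, 0.914%. The 70% was set after VEGFA and ADM had been seen. On the other HIF lists 2 of 14 regulators and 4 of 46 targets outside glycolysis were lowest in both libraries. The regulators were P4HTM at 73.3% and 50.3%, on only 4 to 19 counts per library, and HIF1AN at 89.7% and 94.6%. The 4 targets (LOXL2, ERO1A, TFRC and GBE1) were at 85.8% or more.

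Among the hepatocyte markers, 8 of 10 were not called. The 20% called is near the 18.2% of all tested genes (11.0% higher and 7.24% lower). APOB, the core protein of very low density lipoprotein, had a log2 fold change of 0.61 (edgeR adjusted p = 0.0124), and FGB, the fibrinogen beta chain, had -0.27 (edgeR adjusted p = 0.0462).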
